A study of Bos taurus with 13 samples.

Results

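CXCL9, CXCL10, CXCL11 and IFI47 were followed in the testes of 13 newborn bull calves as 4 of the 18087 genes that the arrays measured with a named probe set. The members were chosen as genes induced by interferon that spread widely between calves, with values of these arrays already known. Each gene was to be represented by the probe set with the highest mean among those carrying its symbol alone, and each of the 4 had exactly 1 such probe set. Their high spread is therefore given as a description and not tested.

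Their dams were Angus cross cows whose mineral supplement, begun 4 months ahead of breeding and kept up through gestation, held 35 ppm of selenium. Its source was 50% organic and 50% inorganic (Mix, 4 calves), the organic product Sel-Plex alone (OSe, 4 calves) or inorganic sodium selenite alone (ISe, 5 calves). All groups thus received supplemental selenium, and no unsupplemented group was analysed here. The trial held 24 cows, 8 per treatment, and testes were taken within 2 days of birth, and each array held RNA of a different calf. Differences between animals are thus part of the spread.

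CXCL9, CXCL10 and CXCL11 are small secreted chemokines that share the receptor CXCR3, found mainly on activated T cells and natural killer cells. Interferon gamma, made by those same lymphocytes, signals through its receptor and the kinases JAK1 and JAK2 to induce all 3, and CXCL10 in particular also responds to type I interferons. IFI47 belongs to the immunity-related GTPases, which in the mouse are induced by interferon gamma and act against pathogens inside cells. In the bovine reference annotation (assembly ARS-UCD2.0) the 3 chemokine genes lie close together on chromosome 6, with only ART3 between CXCL9 and CXCL10, and IFI47 lies on chromosome 7.

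The tissue was whole testis. INSL3, the hormone with which Leydig cells drive testis descent, ran from 12.86 to 13.74 on the log2 scale over the 13 arrays, and AMH, the Sertoli cell hormone, from 12.14 to 12.77. Their mean signals exceeded those of 99.9% and 99.2% of all probe sets. The germ cell helicase DDX4 ran from 7.99 to 9.72. In a whole-tissue sample, fewer cells of a type and less RNA per cell cannot be told apart, which applies to every value that follows. Array medians were at most 7.65 except for OSe animal 2, at 7.74, and arrays correlated at 0.979 to 0.991 across probe sets. The labels give no scan date or other batch.

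CXCL9 measured 9.96, 8.81, 10.03 and 9.43 in Mix animals 1 to 4, 10.71, 9.80, 10.08 and 7.21 in OSe animals 1 to 4, and 8.49, 9.19, 8.46, 9.64 and 9.20 in ISe animals 1 to 5, all as deposited log2 values. The highest and the lowest calf, OSe animals 1 and 4, both belonged to OSe, and all 3 groups overlapped. From the lowest to the highest calf the values spanned 3.50 on the log2 scale, an 11.3-fold range.

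CXCL10 measured 11.26, 9.21, 10.61 and 10.33 in Mix, 11.32, 10.59, 11.03 and 9.78 in OSe, and 10.79, 10.12, 10.41, 9.28 and 10.94 in ISe, in the same order of animals. Mix animal 2 and ISe animal 4 were the low calves of this gene, and the groups again overlapped. The values spanned 2.10, or 4.30-fold.

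CXCL11 measured 10.60, 8.46, 10.07 and 9.35 in Mix, 11.03, 10.09, 10.66 and 7.72 in OSe, and 9.46, 9.87, 9.27, 8.30 and 10.27 in ISe. OSe animal 4, ISe animal 4 and Mix animal 2 were the 3 low calves, below a gap that ran from 8.46 to 9.27. The values spanned 3.31, or 9.90-fold.

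IFI47 measured 9.06, 8.07, 6.78 and 6.65 in Mix, 6.74, 8.53, 9.10 and 8.82 in OSe, and 7.13, 8.80, 8.53, 6.73 and 7.04 in ISe. The calves fell into separate ranges, 6 from 6.65 to 7.13 and 7 from 8.07 to 9.10, with an empty interval of 0.94 between them. Each selenium form had calves in both ranges. The low range held 2 of 4 Mix, 1 of 4 OSe and 3 of 5 ISe calves, and the high range held 2, 3 and 2. The full span was 2.46, or 5.50-fold.

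**Figure D1:**
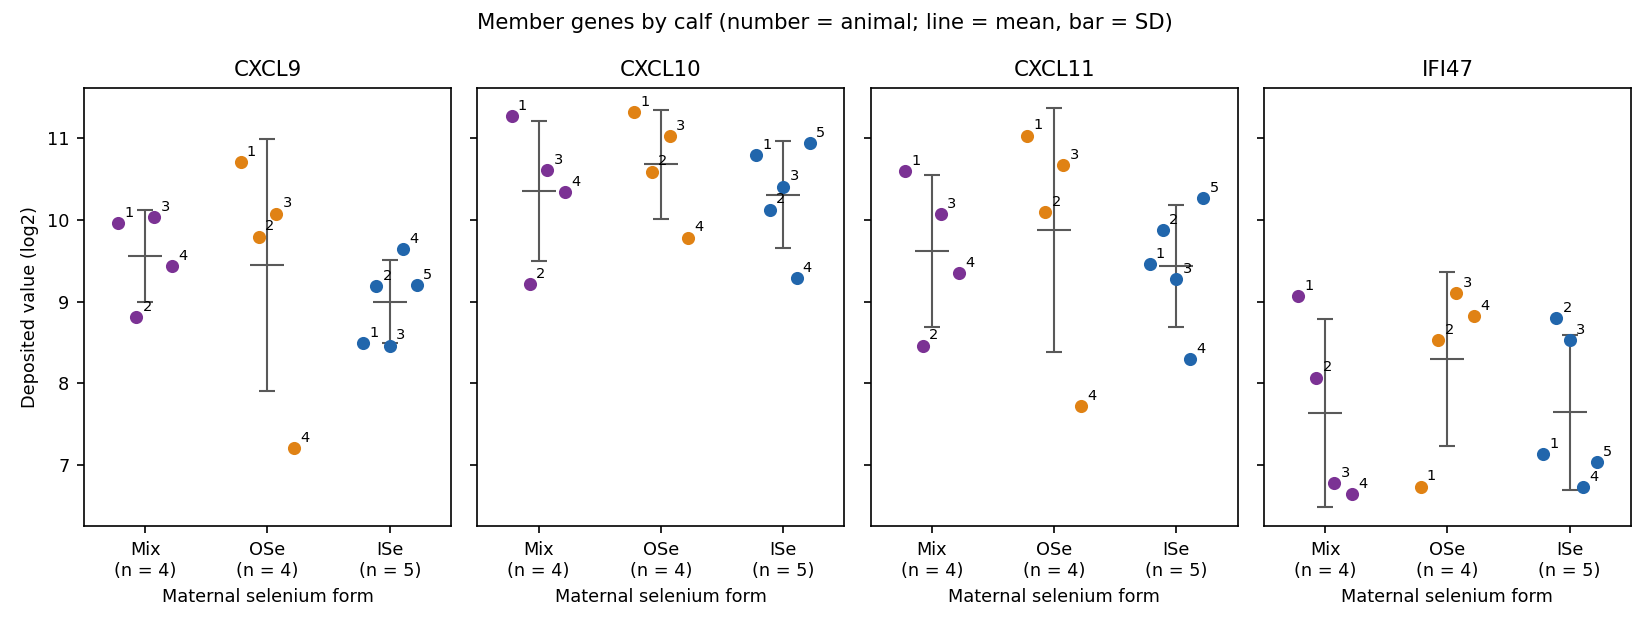
Deposited log2 values (y axis) of CXCL9, CXCL10, CXCL11 and IFI47 in each calf, by maternal selenium form (x axis), with the animal number beside each point, the mean as a horizontal line and the SD as a bar. All groups overlap in every panel, OSe animal 4 has the lowest CXCL9 (7.21) and CXCL11 (7.72), and IFI47 values leave 7.13 to 8.07 empty. Levels of different probe sets are not comparable.

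Over all 13 calves the standard deviation (SD) on the log2 scale was 0.91 for CXCL9, 0.68 for CXCL10, 0.99 for CXCL11 and 1.00 for IFI47, where the median probe set had 0.173. Of 26773 probe sets, 71 had a higher SD than CXCL9, 247 than CXCL10, 53 than CXCL11 and 45 than IFI47. The same held among probe sets with a mean within 0.5 of the gene's own, of which 6 of 3840, 3 of 2255, 5 of 3511 and 4 of 4809 spread more. Leaving out OSe animal 4 lowered the SD of CXCL9 to 0.68 and that of CXCL11 to 0.85. The spread lay mainly inside the groups: differences between the group means held 8.15% of the variance of CXCL9, 6.10% of CXCL10, 3.66% of CXCL11 and 9.76% of IFI47.

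The organic form was compared with the inorganic one first. CXCL9 averaged 9.45 ± 1.54 (SD, n = 4) in OSe and 8.998 ± 0.51 (SD, n = 5) in ISe, a difference of 0.45 ± 0.56 (SE) on the log2 scale. CXCL10 averaged 10.68 ± 0.67 in OSe and 10.31 ± 0.66 in ISe, and CXCL11 9.88 ± 1.49 in OSe and 9.43 ± 0.74 in ISe. IFI47 averaged 8.30 ± 1.07 in OSe and 7.65 ± 0.95 in ISe, a difference of 0.65 ± 0.61. In limma's fit over all probe sets, 0 of the 4 genes passed an adjusted p of 0.05 (0.9999 for each) and 0 had an unadjusted p under 0.05. Of all probe sets, 0% passed the adjusted threshold and 2.62% the unadjusted one, while the groups did not overlap for 0.743%. The 95% intervals of the differences were wide, from -0.75 to 1.65 for CXCL9, -0.55 to 1.29 for CXCL10, -0.90 to 1.79 for CXCL11 and -0.67 to 1.97 for IFI47. Without OSe animal 4 the differences were 1.196 for CXCL9 and 1.16 for CXCL11, and without OSe animal 1 they were 0.03 and 0.06. That of IFI47 was 1.17 without OSe animal 1 and 0.38 without OSe animal 3, and that of CXCL10 was 0.11 without ISe animal 4 and 0.67 without OSe animal 4. These arrays therefore neither show a difference nor show that the forms were alike.

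The mixture was then set against each form alone. CXCL9 averaged 9.56 ± 0.57 (SD, n = 4) in Mix, CXCL10 10.35 ± 0.86, CXCL11 9.62 ± 0.93 and IFI47 7.64 ± 1.15. Against ISe the log2 differences were 0.56 ± 0.56 (SE) for CXCL9, 0.05 ± 0.43 for CXCL10, 0.18 ± 0.62 for CXCL11 and -0.0066 ± 0.61 for IFI47, with limma adjusted p-values from 0.967 to 0.999. Against OSe they were 0.11 ± 0.59, -0.32 ± 0.45, -0.26 ± 0.66 and -0.66 ± 0.64 in the same order, with adjusted p-values from 0.760 to 0.966. Again 0 of 4 passed in either comparison, adjusted or not. The background was 0% adjusted in both, 3.72% unadjusted for Mix against ISe and 8.53% for Mix against OSe, and groups did not overlap for 1.02% and 4.24% of probe sets. For the mixture, the sign of 6 of these 8 differences turned when 1 calf was left out, the exceptions being CXCL9 against ISe and IFI47 against OSe. The size of the last still ran from -1.18 without OSe animal 1 to -0.33 without Mix animal 4. In limma's F test over the 3 forms, adjusted p-values were 0.969 for CXCL9, 0.976 for CXCL10, 0.985 for CXCL11 and 0.966 for IFI47. Of all probe sets, 0% passed that test adjusted and 4.5% unadjusted.

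**Figure D2:**
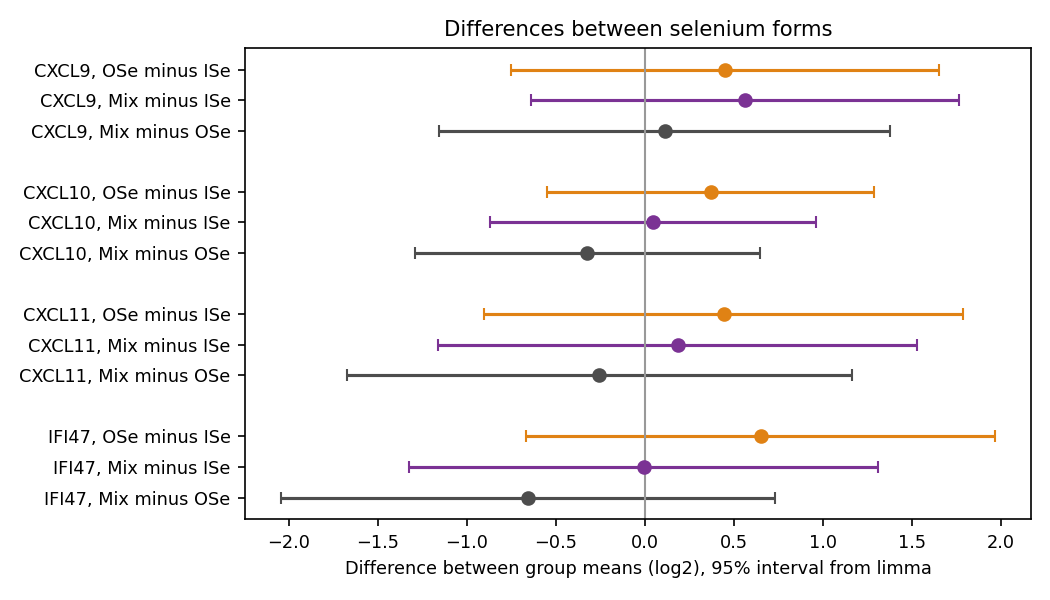
Differences between group means (x axis, log2) for each gene and comparison (y axis), with 95% intervals from limma's fit over 13 arrays. All 12 intervals include 0, and the widest run past 1.5 on the log2 scale.

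CXCL10 and CXCL11 moved together from calf to calf. Their Pearson correlation over the 13 calves was 0.89 (Spearman's rho 0.90), and it was 0.88 when each calf was taken as its deviation from its group mean. Only 4 of 18086 other genes correlated more closely with CXCL10 than CXCL11 did, and 3 more closely with CXCL11 than CXCL10 did. Without Mix animal 2 and ISe animal 4, the calves farthest from the median of CXCL10, the correlation was 0.87. No p is given for this or any other correlation, since the genes were chosen with these values known. The calves share 1 array platform and whatever normalization the authors applied.

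CXCL9 followed CXCL11 at 0.77 (rho 0.77) and CXCL10 at 0.50 (rho 0.62). Of 18086 other genes, 95 correlated more closely with CXCL9 than CXCL11 did, and 1521 more closely than CXCL10 did. In turn, 55 genes were closer to CXCL11 than CXCL9 was, and 1167 closer to CXCL10. The looser relations of CXCL9 depended on which calves were left out. Without OSe animals 1 and 4, the farthest from the median of CXCL9, they were 0.51 and 0.29. ISe animal 4 stood apart in the other direction, with the highest CXCL9 of its group (9.64) and the group's lowest CXCL10 and CXCL11. Without it the correlations rose to 0.90 with CXCL11 and 0.65 with CXCL10. The calves farthest from the median of CXCL11 were OSe animal 4 and ISe animal 4, and without them CXCL9 followed CXCL11 at 0.81. Without Mix animal 2 and ISe animal 4, the farthest from the median of CXCL10, CXCL9 followed CXCL10 at 0.75. All 3 chemokines lay above their own 13-calf means in 5 calves, of which 2 were Mix and 3 OSe, and all 3 lay below in 3 calves, 1 of each form.

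IFI47 did not follow the chemokines. Among the 5 calves with all 3 chemokines above their means, IFI47 was above its own mean in 3 and below it in 2. All 3 calves in which every chemokine was below its mean had IFI47 above its mean. OSe animal 1 had the highest value of every chemokine and an IFI47 value of 6.74, in the low range. OSe animal 4 had the lowest CXCL9 and CXCL11 and an IFI47 value of 8.82, in the high range. Because IFI47 fell into separate ranges, correlations were taken inside each range. With CXCL10 they were 0.36 in the 6 low calves and 0.77 in the 7 high calves, with CXCL11 0.12 and 0.54, and with CXCL9 -0.70 and 0.30. With so few calves these values only describe the points.

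**Figure D3:**
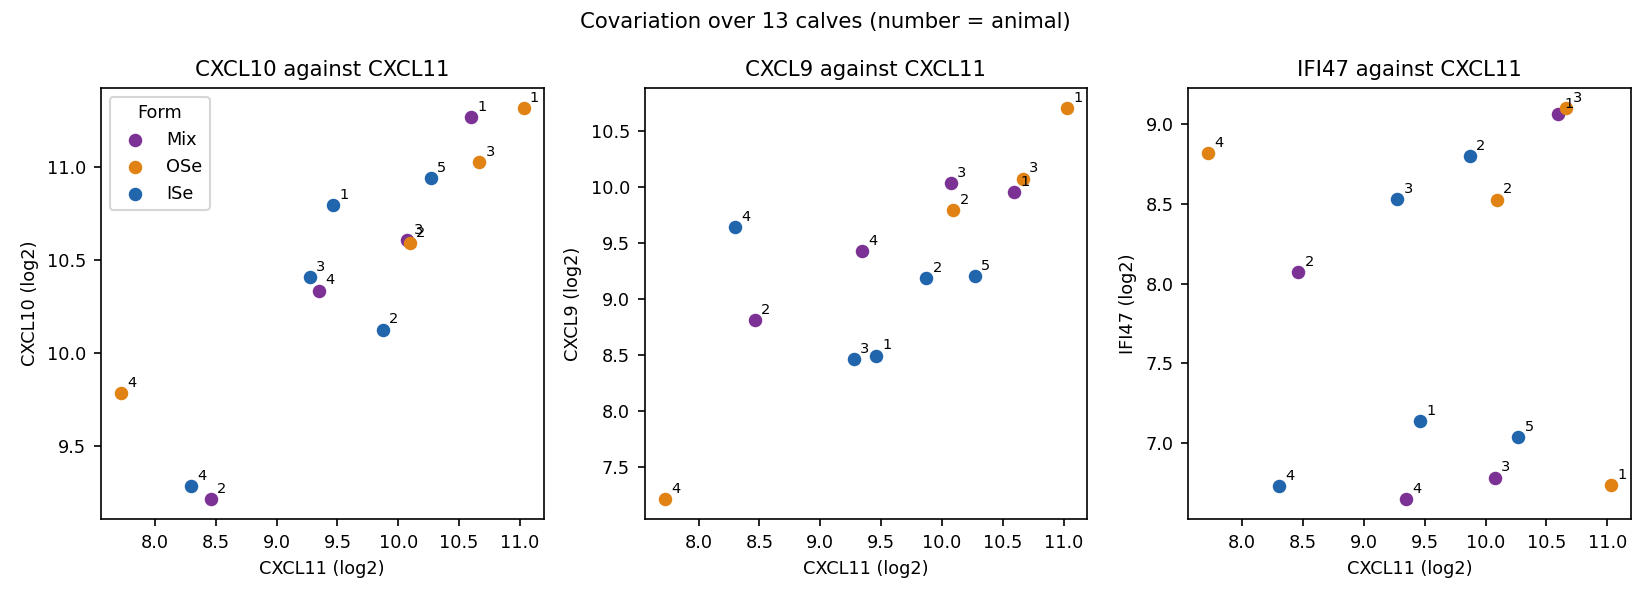
Log2 values of CXCL10, CXCL9 and IFI47 (y axes) against CXCL11 (x axes) in 13 calves, coloured by selenium form and numbered by animal. CXCL10 rises with CXCL11 along a narrow band (r = 0.89), CXCL9 does so with ISe animal 4 and OSe animal 4 at the edges, and IFI47 has calves in both of its ranges at low and at high CXCL11.

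Receptors and ligands of the pathway were looked at next, from 30 genes listed by role, of which 27 were measured by a probe set with that symbol alone. The other 3 were not analysed here. None of the 27 passed limma's test in any of the 3 comparisons (lowest adjusted p 0.581), where 0% of all probe sets passed. CXCR3, the shared receptor, ran from 8.03 to 8.60 over the calves and correlated at 0.07 with CXCL9, 0.48 with CXCL10 and 0.39 with CXCL11. ACKR3, a scavenging receptor that also binds CXCL11, was at -0.25, -0.28 and -0.25, and at 0.29, 0.09 and 0.23 without OSe animal 1. DPP4, a protease that trims these chemokines, was at -0.08, 0.23 and 0.11. Without Mix animal 2 the values of DPP4 were -0.18, -0.03 and -0.06, and without OSe animal 4 they were 0.04, 0.29 and 0.25. The value of CXCR3 with CXCL9 was -0.04 without Mix animal 1 and 0.22 without ISe animal 3.

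Interferon gamma itself, IFNG, gave values of 5.95, 6.47, 5.87 and 5.88 in Mix, 6.23, 6.18, 6.08 and 5.16 in OSe, and 5.51, 5.93, 5.25, 6.44 and 6.02 in ISe. Its mean lay below the 25th percentile of probe set means, 6.26, so it was dim. IFNG was highest in Mix animal 2 and ISe animal 4, the calves with the lowest CXCL10, and lowest in OSe animal 4. Across the 13 calves it correlated at 0.69 with CXCL9, 0.25 with CXCL11 and -0.13 with CXCL10, and without OSe animal 4 these were 0.49, -0.11 and -0.37. Both receptor chains were steady, IFNGR1 between 9.74 and 10.12 and IFNGR2 between 9.83 and 10.29. JAK1 and JAK2, the receptor kinases, spanned 11.10 to 11.40 and 8.81 to 9.18.

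Downstream factors differed in how closely they tracked the chemokines. IRF1, a transcription factor induced by interferon gamma, correlated at 0.46 with CXCL9, 0.64 with CXCL10 and 0.59 with CXCL11. CIITA, the activator of class II histocompatibility genes, was at 0.69, 0.76 and 0.76. IRF8, a factor of myeloid cells, was at 0.43, -0.28 and 0.00 (0.19, -0.48 and -0.36 without OSe animal 4), and SOCS1, a feedback inhibitor of JAK kinases, at 0.20, -0.12 and 0.04. SOCS1 was at -0.07 with CXCL9 without OSe animal 4 and at 0.21 with CXCL10 without Mix animal 2.

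Effector genes of the interferon gamma response varied in how closely they followed the chemokines. GBP5, a guanylate-binding protein, measured 10.04, 8.30, 9.23 and 9.27 in Mix, 10.20, 9.82, 9.85 and 8.72 in OSe, and 9.86, 9.30, 9.14, 8.40 and 9.76 in ISe. Its low calves were the same as those of CXCL10, Mix animal 2 and ISe animal 4, and its correlation with CXCL10 was 0.96. IDO1, which breaks down tryptophan, reached 7.95 in OSe animal 1, against at most 6.84 in the other calves. It correlated at 0.83 with CXCL9, 0.61 with CXCL10 and 0.74 with CXCL11. TAP1, the peptide transporter of class I presentation, was at 0.63, 0.53 and 0.58, and PSMB9, an immunoproteasome subunit, at 0.52, 0.37 and 0.43. Without Mix animal 2 the value of PSMB9 with CXCL10 was 0.58.

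The whole list of 25 measured interferon-gamma-induced genes had a median correlation of 0.60 with CXCL9, 0.61 with CXCL10 and 0.68 with CXCL11, where the median over 18083 other genes was 0.0078, -0.0061 and 0.01. Correlations above 0.6 were found for 12, 14 and 17 of the 25, against 4.24%, 2.73% and 2.81% of all genes. Without OSe animal 4 the medians were 0.47, 0.57 and 0.61. The list's mean level ran from 8.78 to 9.27 in Mix, 8.71 to 9.38 in OSe and 8.84 to 9.12 in ISe. In no comparison did any of its genes pass the test.

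Type I interferon-stimulated genes, which encode antiviral proteins, showed a different alignment. The 36 measured members had a median correlation of 0.55 with CXCL10, 0.48 with CXCL11 and 0.20 with CXCL9. The last value was -0.08 without OSe animal 4 and 0.45 without ISe animal 1. The antiviral GTPase MX1 had correlations of 0.70, 0.61 and 0.15 in that order. Its value with CXCL9 was -0.09 without OSe animal 4 and 0.41 without ISe animal 1. MX1 was highest in ISe animal 1 at 10.06, where the antiviral protein RSAD2 was also highest at 9.18, against at most 8.06 elsewhere, and the ubiquitin-like ISG15 at 7.35, against at most 7.08. In that calf CXCL10 was 10.79, and CXCL9, at 8.49, was among the lower values. With CXCL10, CXCL11 and CXCL9, ISG15 was at 0.39, 0.35 and 0.17 and RSAD2 at 0.36, 0.22 and -0.12. IFIT2, which was dim, was at 0.59, 0.39 and 0.03. Without ISe animal 1 the values with CXCL9 were 0.62 for ISG15, 0.32 for RSAD2 and 0.19 for IFIT2. The difference between the chemokines in how they aligned with this list was not tested.

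**Figure D4:**
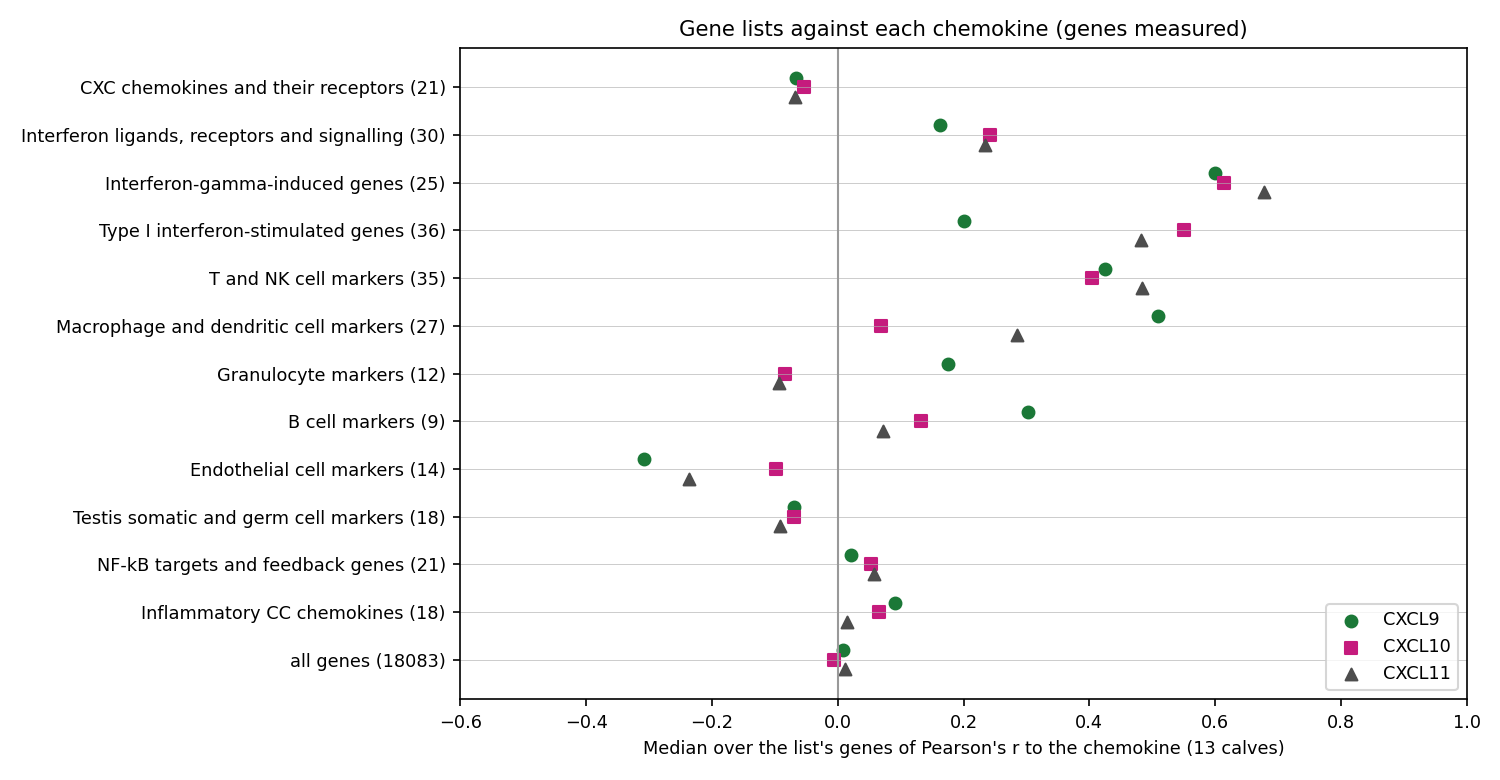
Median over each list's measured genes (number in parentheses) of Pearson's r to CXCL9, CXCL10 and CXCL11 over 13 calves (x axis). Interferon-gamma-induced genes lie farthest to the right (0.60 to 0.68), type I genes lie at 0.55 and 0.48 for CXCL10 and CXCL11 but at 0.20 for CXCL9, and the median over all genes is near 0.

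T and NK cell markers correlated mainly above 0 with each of the 3 chemokines. Of 35 measured T and NK cell markers, 30 correlated above 0 with CXCL9, 28 with CXCL10 and 29 with CXCL11, with medians of 0.42, 0.40 and 0.48, against 50.9%, 49.4% and 51.2% of all genes above 0. The mean level of this list was 7.41 to 7.84 in Mix, 7.38 to 7.76 in OSe and 7.48 to 7.66 in ISe. The granzyme GZMA correlated at 0.83, 0.64 and 0.79 with CXCL9, CXCL10 and CXCL11, and was 5.45 in OSe animal 4, against at least 6.34 in the other calves. The T cell receptor chain CD3E was at 0.58, 0.60 and 0.71, the cytotoxic coreceptor CD8A at 0.63, 0.63 and 0.71 and the granule protein NKG7 at 0.70, 0.46 and 0.64. The markers named here lay above the list's medians with each chemokine. Without OSe animal 4 the list's medians were 0.33, 0.33 and 0.40, and CD3E was at 0.38 with CXCL9 and GZMA at 0.64. The log2 values have no true zero, and 6 of the 35 markers had a mean below the 25th percentile of probe sets. The part of lymphocyte content in the chemokine spread was not tested.

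Macrophage and dendritic cell markers, 27 in number, had a median correlation of 0.51 with CXCL9, 0.29 with CXCL11 and 0.07 with CXCL10. Without OSe animal 4 these were 0.41, 0.11 and -0.05. With CXCL9, 24 of the 27 correlated above 0 and 10 above 0.6, against 50.9% and 4.24% of all genes. With CXCL11 these counts were 22 and 4, against 51.2% and 2.81%. With CXCL10 they were 16 and 1, against 49.4% and 2.73%. The markers listed by role lay below the list's medians. The lysosomal protein CD68 was at -0.13, -0.33 and -0.41 with the chemokines in that order, and the scavenger receptor CD163 at 0.21, 0.01 and -0.13. The value of CD163 with CXCL9 was -0.14 without OSe animal 4 and 0.44 without OSe animal 1, and that of CD68 was 0.08 without OSe animal 1. The mean level of the list ran from 8.05 to 8.31 in Mix, 7.72 to 8.37 in OSe and 7.80 to 8.31 in ISe. Granulocyte markers had medians of 0.18, -0.08 and -0.09 with CXCL9, CXCL10 and CXCL11, B cell markers 0.30, 0.13 and 0.07, and endothelial markers -0.31, -0.10 and -0.24. Single calves moved these medians. That of granulocyte markers with CXCL9 was 0.04 without Mix animal 3, and that of endothelial markers with CXCL10 was -0.29 without ISe animal 4. For B cell markers it was 0.16 with CXCL9 without OSe animal 4 and -0.07 with CXCL10 without Mix animal 1. Markers of the testis's own somatic and germ cells had medians of -0.07, -0.07 and -0.09.

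The remaining interferon and inflammatory lists had lower medians than the interferon-gamma-induced genes. The 21 measured NF-kB targets and feedback genes had medians of 0.02, 0.05 and 0.06 with CXCL9, CXCL10 and CXCL11, and NFKBIA, the inhibitor that NF-kB induces, was at -0.25, 0.05 and -0.01, the last 2 changing sign when 1 calf was left out. Of these 21 genes, 1, 2 and 1 correlated above 0.6 with CXCL9, CXCL10 and CXCL11. The 21 other CXC chemokines, their receptors and DPP4 had medians of -0.07, -0.05 and -0.07, and 0 of the 21 correlated above 0.6 with any of the 3. The 18 inflammatory CC chemokines and receptors had medians of 0.09, 0.07 and 0.01, with 1, 2 and 1 above 0.6. Among all 30 measured genes of interferon ligands, receptors and signalling, medians were 0.16, 0.24 and 0.23, and 4, 6 and 4 of the 30 correlated above 0.6, against 4.24%, 2.73% and 2.81% of all genes.

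The nearest measured neighbours of the chemokine genes on chromosome 6 had correlations of both signs with them. ART3, which lies between CXCL9 and CXCL10, correlated at 0.48 with CXCL9, 0.06 with CXCL10 and 0.21 with CXCL11. SDAD1, on the other side of CXCL9, was at -0.19, -0.46 and -0.48, and NUP54, beyond CXCL11, at -0.09, -0.10 and -0.08. The neighbours of IFI47 were also steadier than IFI47, with TRIM52 between 7.86 and 8.59 (SD 0.23), RACK1 between 13.19 and 13.30 and ZNF496 between 8.13 and 8.62.

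The 10 genes most like the 4 members, by the mean of their Pearson correlations to all 4 over 13 calves, were CORO1A, C1R, IL4I1, PSMB8, LGALS9, ARHGDIB, ITGAL, TTLL5, HOPX and PLAC8B, with means from 0.64 to 0.60, which include IFI47 across both of its ranges. Inside its ranges, IFI47 correlated with these 10 at -0.56 (IL4I1) to 0.33 (C1R) in the 6 low calves. In the 7 high calves the values were 0.40 (CORO1A) to 0.65 (C1R). The 10 genes include the leukocyte actin regulator CORO1A, at 0.75 with CXCL9, 0.72 with CXCL10 and 0.89 with CXCL11. The complement protease C1R was at 0.70, 0.83 and 0.91, the immunoproteasome subunit PSMB8 at 0.81, 0.79 and 0.90 and the leukocyte integrin ITGAL at 0.78, 0.68 and 0.83. When deviations from group means were used, 6 stayed among the first 10 and all 10 were among the first 50. By the mean over the 3 chemokines alone, 4 were among the first 10, a ranking added after IFI47 was seen to differ. PSMB8 led that ranking at 0.83.

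Each chemokine had its own closest genes. For CXCL9 they were BOLA-DRB3 (0.96), a class II histocompatibility chain, the protein kinase C gene PRKCB (0.93) and CD74 (0.92), the class II invariant chain. BOLA-DRB3 correlated at 0.37 with CXCL10 and 0.66 with CXCL11. Leaving out 1 calf gave 0.23 (without OSe animal 1) to 0.55 (without ISe animal 4) for CXCL10 and 0.47 (without OSe animal 4) to 0.82 (without ISe animal 4) for CXCL11. For CXCL10 they were GBP5 (0.96), LOC513659 (0.95) and DYDC1 (0.91), which were at 0.88, 0.84 and 0.79 with CXCL11. For CXCL11 they were C1R (0.91), PSMB8 (0.90) and CORO1A (0.89), which were at 0.83, 0.79 and 0.72 with CXCL10. BOLA-DRB3 measured 11.89, 11.52, 12.05 and 11.82 in Mix, 12.30, 11.75, 11.99 and 10.90 in OSe, and 11.22, 11.70, 11.50, 11.93 and 11.51 in ISe, with OSe animals 1 and 4 at the extremes as for CXCL9.

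The genes ranked closest to IFI47 were QPCTL, a Golgi glutaminyl cyclase, the calcium-binding protein S100A11 and the lipid carrier APOE. S100A11 separated the same calves, at most 10.15 in those with low IFI47 and at least 10.27 in those with high IFI47. QPCTL nearly did so, at most 8.26 in the low calves and at least 8.23 in the high ones. Both were picked by their correlation with IFI47 over both ranges, which favours genes that separate these calves. How many genes separate them was not counted. Inside the ranges S100A11 correlated with IFI47 at 0.77 in the 6 low calves and -0.56 in the 7 high calves, QPCTL at 0.54 and 0.44 and APOE at 0.34 and 0.35. With CXCL9, CXCL10 and CXCL11, S100A11 was at -0.35, -0.12 and -0.12. Only 1 of these 3 genes stayed among the first 10 on deviations from group means. Type I interferon-stimulated genes had median correlations with IFI47 of 0.61 in the low calves and 0.42 in the high ones. Interferon-gamma-induced genes had 0.10 and 0.51, T and NK cell markers -0.28 and 0.37, and macrophage and dendritic cell markers -0.60 and 0.06. Medians over all genes were 0.0063 and -0.04. These medians rest on few calves and were not tested.

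**Figure D5:**
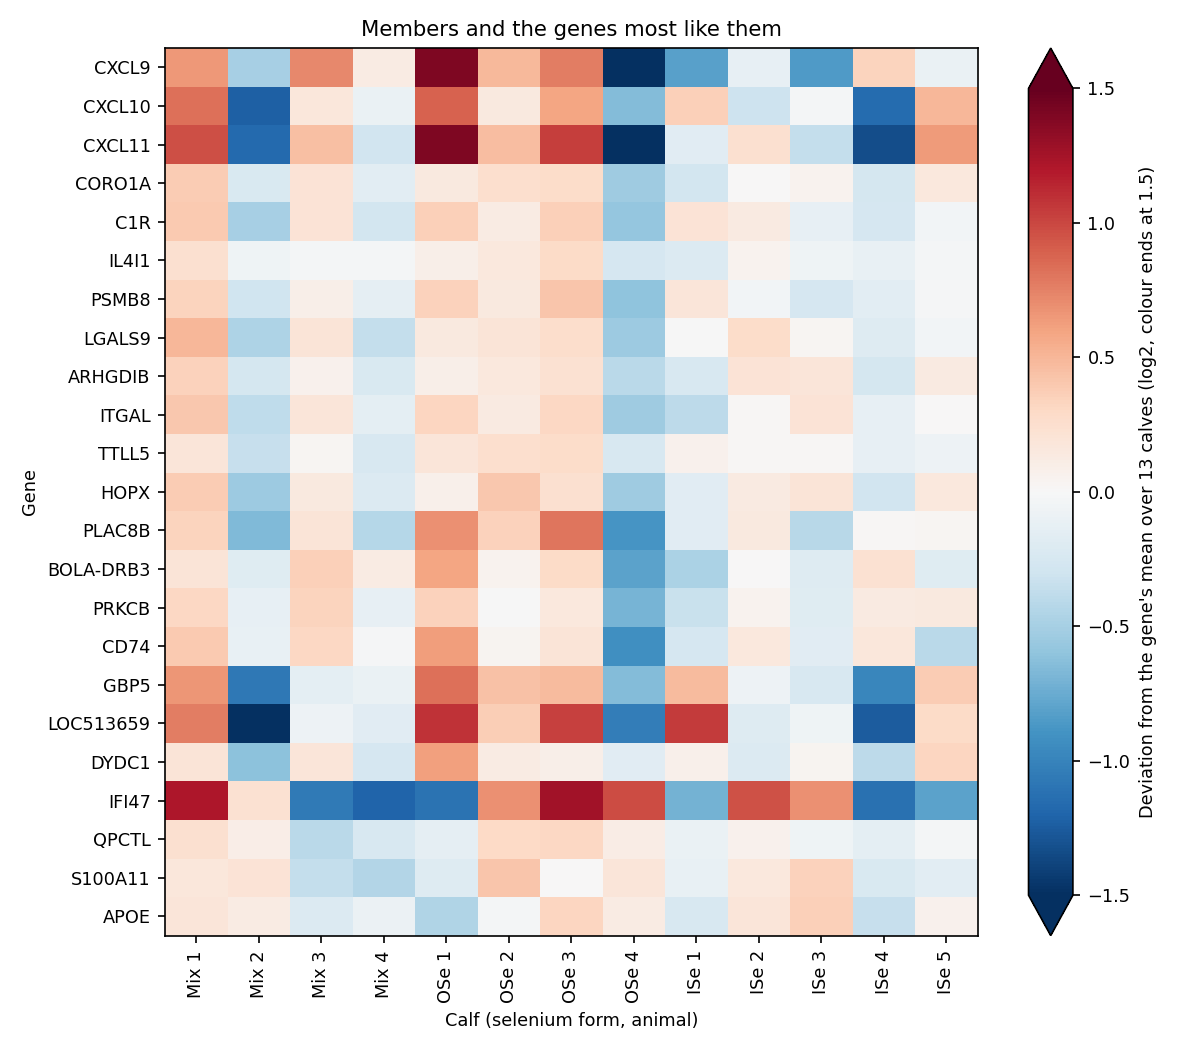
Deviation of each gene (rows) from its own mean over 13 calves (columns) on the log2 scale, for the 3 chemokines, the genes most like them, and IFI47 with its closest genes. Rows from CXCL9 to DYDC1 lie below their means in OSe animal 4 and above them in OSe animal 1, some only slightly. IFI47 is high in OSe animal 4 and low in OSe animal 1.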

How the data were processed

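Testis RNA of 13 calves was measured on Affymetrix arrays from biotin-labelled cRNA, per the labels' protocols. The authors deposited log2 values, 1 per probe set and array, read as log2 because they ran from 2.07 to 14.6. GCOS 1.2 and Partek 6.4 are named in the submitters' processing notes. Background correction, probe summary, normalization and centring are not given in the sources used here. No detection calls or background signals were used here, so precision rests on how many arrays each group has.

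Arrays were grouped by title. Of 26773 probe sets, 18550 had exactly 1 symbol, 595 several and 7628 none. Gene identifiers matched the reference table (ARS-UCD2.0) for 17996 of 18166 and changed 0 symbols. Genes were represented by the probe set with the highest mean, which gave 18087 genes.

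All probe sets were fitted together in limma 3.58.1 (R 4.3.3) with a mean per group and empirical Bayes moderation. Two-sided p-values were adjusted over all probe sets by Benjamini-Hochberg, and the fit was tested on simulated data. Figures used matplotlib 3.10.9.

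The members, gene lists and tests were chosen with earlier results of these data known. Genes named were the members, 30 pathway genes listed by role, the 10 genes with the highest mean correlation to the members and the 3 highest for each member. Alternatives were quantile normalization, median centring, a filter at the 25th percentile, an unmoderated model, an intensity trend, array weights, a replicate block and leaving out each array.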

Additional observations from a re-analysis of the deposited data

Results flagged for a closer look

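In groups of 4 or 5 calves, a calf was singled out when its gap to the nearest other calf took up more of the group's range than Dixon's 95% limit allows. Of 147 groups of values examined, 12 had such a calf. Chance gives about 1 in 20 where groups are independent. Some of these genes, CORO1A and LGALS9 among them, were chosen because they correlate with the members in the same calves. That share is therefore no reference for the 12. None of the 12 was a value of CXCL9, CXCL10, CXCL11 or IFI47.

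OSe animal 4 was the lowest of its group in 4 of the 12. IFNG was 5.16, against 6.08 to 6.23 in the other OSe calves, and GZMA was 5.45, against 7.18 to 7.33. CORO1A was 9.01, against 9.69 to 9.82, and LGALS9, a galectin, was 9.67, against 10.36 to 10.49.

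In Mix, animal 2 had the highest IFNG at 6.47, against 5.87 to 5.95, and animal 1 the highest IL4I1, an amino acid oxidase, at 6.76, against 6.44 to 6.48. In ISe, animal 1 had the highest ISG15 at 7.35, against 6.68 to 6.77, and the lowest NKG7 at 9.33, against 9.82 to 9.90. ISe animal 3 had the highest JAK2 at 9.06, against 8.91 to 8.95, and the lowest SOCS1 at 7.22, against 7.58 to 7.68. ISe animal 4 had the highest IFNGR2 at 10.22, against 9.92 to 9.99, and ISe animal 5 the lowest CD163 at 6.56, against 7.16 to 7.35.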

How the results depend on the processing

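Of 240 recomputed differences of the 4 genes, 219 kept their sign, 21 turned, and 0 passed the test (lowest adjusted p 0.548). Part of the 219 could not turn. The filter, the unmoderated model and the intensity trend left every difference unchanged, as did leaving out a calf of the group not compared. Array weights turned CXCL9 in Mix against OSe (-0.10) and, in Mix against ISe, CXCL10 (-0.0668), CXCL11 (-0.0052) and IFI47 (0.0151). Leaving out 1 calf at a time gave, for Mix against ISe, -0.26 to 0.43 for CXCL10, -0.14 to 0.57 for CXCL11 and -0.48 to 0.32 for IFI47. For Mix against OSe it gave -0.64 to 0.53 for CXCL9, -0.63 to 0.0572 for CXCL10 and -0.98 to 0.13 for CXCL11. Over all probe sets, limma called 0 in each comparison (701, 995 and 2283 at an unadjusted p under 0.05 in OSe against ISe, Mix against ISe and Mix against OSe, and 1206 in the F test). The unmoderated model called 0 as well (679, 945, 2148 and 1112). Leaving out 1 calf gave 0 to 1 calls in Mix against OSe and in the F test, the 1 without OSe animal 3, and the cause was not tested. With the animal number as a replicate block the calls were 0 in every comparison. The blocked differences of OSe against ISe were 0.50 for CXCL9, 0.53 for CXCL10, 0.65 for CXCL11 and 0.50 for IFI47. Over all probe sets, deviations from group means correlated at -0.15 to 0.10 in 12 pairs of calves with the same number. In 44 pairs with different numbers they correlated at -0.26 to 0.29. Such correlations cannot decide whether the numbers pair calves for a part of the genes. The correlation of CXCL10 with CXCL11 stayed between 0.87 and 0.92 without any 1 calf, that of CXCL9 with CXCL11 between 0.63 and 0.90 and that of CXCL9 with CXCL10 between 0.39 and 0.65. Each of the 4 genes had 1 probe set, so no other probe set could be tried.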
